A study of Homo sapiens with 6 samples.

Results

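The AP-1 transcription factor genes are the 8 genes FOS, FOSB, FOSL1, FOSL2, JUN, JUNB, JUND and ATF3, out of 19974 protein-coding genes on chromosomes 1 to 22 and X. Their occupancy was read from 4 lists of ChIPmentation peaks of IMR90 cells, an established line of human embryonic lung fibroblasts. ChIPmentation is chromatin immunoprecipitation in which a transposase cuts the bound chromatin and adds sequencing adapters to it. A peak was assigned to a gene when it touched the gene's RefSeq span or the 5 kb on either side. The lists were SON in untreated cells, SON after 3 days and after 6 days of a treatment that the labels call ICM and do not expand, and HMGB2 in untreated cells. Cells for SON were fixed with 1% formaldehyde, and cells for HMGB2 with 1.5 mM EGS, a longer-reaching protein crosslinker, before the 1% formaldehyde, so target and fixation cannot be told apart between SON and HMGB2. The series addressed the part of both proteins in CTCF binding, nuclear architecture and transcription. An HMGB2 input and an HMGB2 sample fixed with DSG by its title were not analysed here.

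AP-1 is a dimer of basic leucine zipper (bZIP) proteins. JUN proteins pair with one another or with FOS proteins, while FOS proteins need a JUN partner, and ATF3 belongs to the related ATF branch of the same class. The dimers bind a short DNA element known as the AP-1 site or TPA response element (TRE), and those with ATF or CREB members also bind the cAMP response element (CRE). FOS, FOSB, JUN, JUNB and ATF3 are immediate early genes, transcribed within minutes of serum, growth factors or stress through MAP kinases, and AP-1 is a main regulator of fibroblast enhancers, also in senescent cells. SON is a large scaffold protein of nuclear speckles, bodies rich in splicing factors, and HMGB2 is an abundant protein that binds and bends DNA.

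Each list is a single deposited set of peaks, so no difference between conditions could be tested, and the numbers below describe the lists. The strength of a peak is its −log10 p, the value of the authors' peak caller. It is not on one scale across lists, so each peak is also given by its rank and by its percentile, the percentage of the list's peaks that are weaker. The untreated SON list held 22362 peaks, the 3-day list 11158, the 6-day list 5583 and the HMGB2 list 6013. Ranks in lists of different length show no change in binding. Each SON list joined 2 replicates by the irreproducible discovery rate (IDR), a measure of how poorly their rankings agree at a peak, and its −log10 p is the lower value of the pair. The lists give no read counts, so sequencing depth is unknown. Of 10 fibroblast marker genes, 8 had a SON peak in untreated cells and 5 an HMGB2 peak, against 1 and 0 of 5 epithelial markers, 2 and 0 of 4 endothelial markers and 2 and 1 of 4 immune markers. Of all protein-coding genes, 57.1% and 23.3% had one. SON peaks at 3 days were found at 4 fibroblast, 0 epithelial, 1 endothelial and 2 immune markers (41% of all genes). At 6 days the numbers were 3, 0, 0 and 1 (21.5% of all genes). A peak at a gene does not measure its expression.

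Of the 8 genes, 7 had an entry in the RefSeq promoter table, ATF3 with 2 starts, and FOSL1 had none. In 6 of them a peak of at least 1 list lay on the 250 bases before the gene start, and these stretches are shown because the peaks fall on them. They are given 5′ to 3′ on the gene's strand, from RefSeq on GRCh38.p14. JUN is chr1:58784048-58784297 (minus strand), JUND chr19:18281623-18281872 (minus strand), JUNB chr19:12791236-12791485 (plus strand), FOS chr14:75278578-75278827 (plus strand), FOSB chr19:45467746-45467995 (plus strand) and FOSL2 chr2:28392608-28392857 (plus strand). Capitals mark the short core of the CRE, TGACG, the CRE or CRE-like site TGACNTCA, both read on either strand, and the TATA box TATAAA on the gene's strand.
JUN: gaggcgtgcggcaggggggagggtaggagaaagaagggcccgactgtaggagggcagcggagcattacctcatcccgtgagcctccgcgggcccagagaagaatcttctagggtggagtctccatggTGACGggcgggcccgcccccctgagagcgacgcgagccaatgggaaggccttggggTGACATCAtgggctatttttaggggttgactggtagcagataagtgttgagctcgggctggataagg
JUND: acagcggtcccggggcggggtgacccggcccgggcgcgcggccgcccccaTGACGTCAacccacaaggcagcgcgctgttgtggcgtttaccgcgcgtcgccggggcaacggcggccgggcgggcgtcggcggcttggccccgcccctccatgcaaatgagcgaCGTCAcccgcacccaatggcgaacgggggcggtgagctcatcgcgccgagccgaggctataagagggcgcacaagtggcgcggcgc
JUNB: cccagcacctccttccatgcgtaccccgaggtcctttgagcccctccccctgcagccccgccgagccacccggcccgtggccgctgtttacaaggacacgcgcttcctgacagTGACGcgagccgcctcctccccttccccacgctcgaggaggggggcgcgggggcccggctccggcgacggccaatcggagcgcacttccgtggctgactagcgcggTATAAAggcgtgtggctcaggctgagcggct
FOS: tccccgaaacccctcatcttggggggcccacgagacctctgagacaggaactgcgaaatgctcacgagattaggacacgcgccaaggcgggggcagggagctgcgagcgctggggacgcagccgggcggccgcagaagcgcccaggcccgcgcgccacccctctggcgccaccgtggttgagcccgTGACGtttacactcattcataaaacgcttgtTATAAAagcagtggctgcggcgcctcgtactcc
FOSB: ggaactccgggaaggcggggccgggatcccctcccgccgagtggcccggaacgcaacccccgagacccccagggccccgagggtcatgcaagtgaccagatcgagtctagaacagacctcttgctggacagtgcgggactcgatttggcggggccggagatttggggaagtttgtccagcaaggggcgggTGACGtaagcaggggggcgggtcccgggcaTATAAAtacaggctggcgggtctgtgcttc
FOSL2: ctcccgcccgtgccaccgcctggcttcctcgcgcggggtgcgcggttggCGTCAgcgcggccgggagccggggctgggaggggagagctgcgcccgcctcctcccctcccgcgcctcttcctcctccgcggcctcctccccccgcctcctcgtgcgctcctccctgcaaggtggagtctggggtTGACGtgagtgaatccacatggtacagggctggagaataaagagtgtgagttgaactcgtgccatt
The stretches of JUN and JUND met a peak in all 4 lists, that of FOSL2 in all but the 6-day SON list, that of FOSB in the untreated and 3-day SON lists, that of JUNB in the untreated SON and HMGB2 lists, and that of FOS in the HMGB2 list alone.

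The CRE core TGACG stood in the promoters of 6 genes, FOS, FOSB, FOSL2, JUN, JUNB and JUND, and 24.1% of the 22156 promoters of protein-coding genes held one in the same 250 bases. A CRE or CRE-like site, which contains the core where its variable base is G, stood in JUND as the full CRE TGACGTCA from base -200 to -193 before the start, in JUN as TGACATCA from base -67 to -60, and at the first of the ATF3 starts as TGACATCA from base -123 to -116. Of all promoters 6.14% held this pattern and 2.01% the full CRE. A TATA box lay from base -33 to -28 in FOS, -31 to -26 in JUNB and -30 to -25 in FOSB, and from base -230 to -225 at the second ATF3 start, and 6.17% of all promoters held one anywhere in the window. The AP-1 site TGANTCA, searched on both strands, was in none of the 8 windows of these genes and in 5.36% of all. These matches describe letters, not bound sites, and say nothing of the factors.

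SON peaks were found at all 8 genes in untreated cells, where 57.1% of protein-coding genes had one, at all 8 after 3 days, against 41%, and at 5 after 6 days, against 21.5%. HMGB2 peaks were found at all 8, against 23.3%, though at FOSL1 they lay only in the flanks and none touched the gene. Among the 14242 protein-coding genes no longer than ATF3, the longest of the 8, the shares were 52%, 37.2%, 18.4% and 22.2% in the same order. The untreated SON list held 17 peaks at these genes, the 3-day list 13, the 6-day list 5 and the HMGB2 list 49. FOS, FOSL1, JUN, JUND and ATF3 carried a peak in every list, as did 10.6% of protein-coding genes. FOSB, FOSL2 and JUNB had no SON peak at 6 days, and their nearest one then lay 11.9, 91.5 and 54.1 kb away. Within 1 kb of the start, SON peaks were found at 5, 4 and 2 of the 7 genes whose start the table gives, against 42.9%, 30.4% and 12.6% of 15813 genes. The SON counts depended on the peaks kept. With every list cut to its 5583 strongest peaks, SON marked 4 of the 8 genes in untreated cells (26.3% of all genes), 8 at 3 days (27.2%) and 5 at 6 days (21.5%). At a global IDR of at most 0.05 it marked 7 (45% of all genes), 8 (24%) and 1 (5.02%), and the last was FOS.

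**Figure D1:**
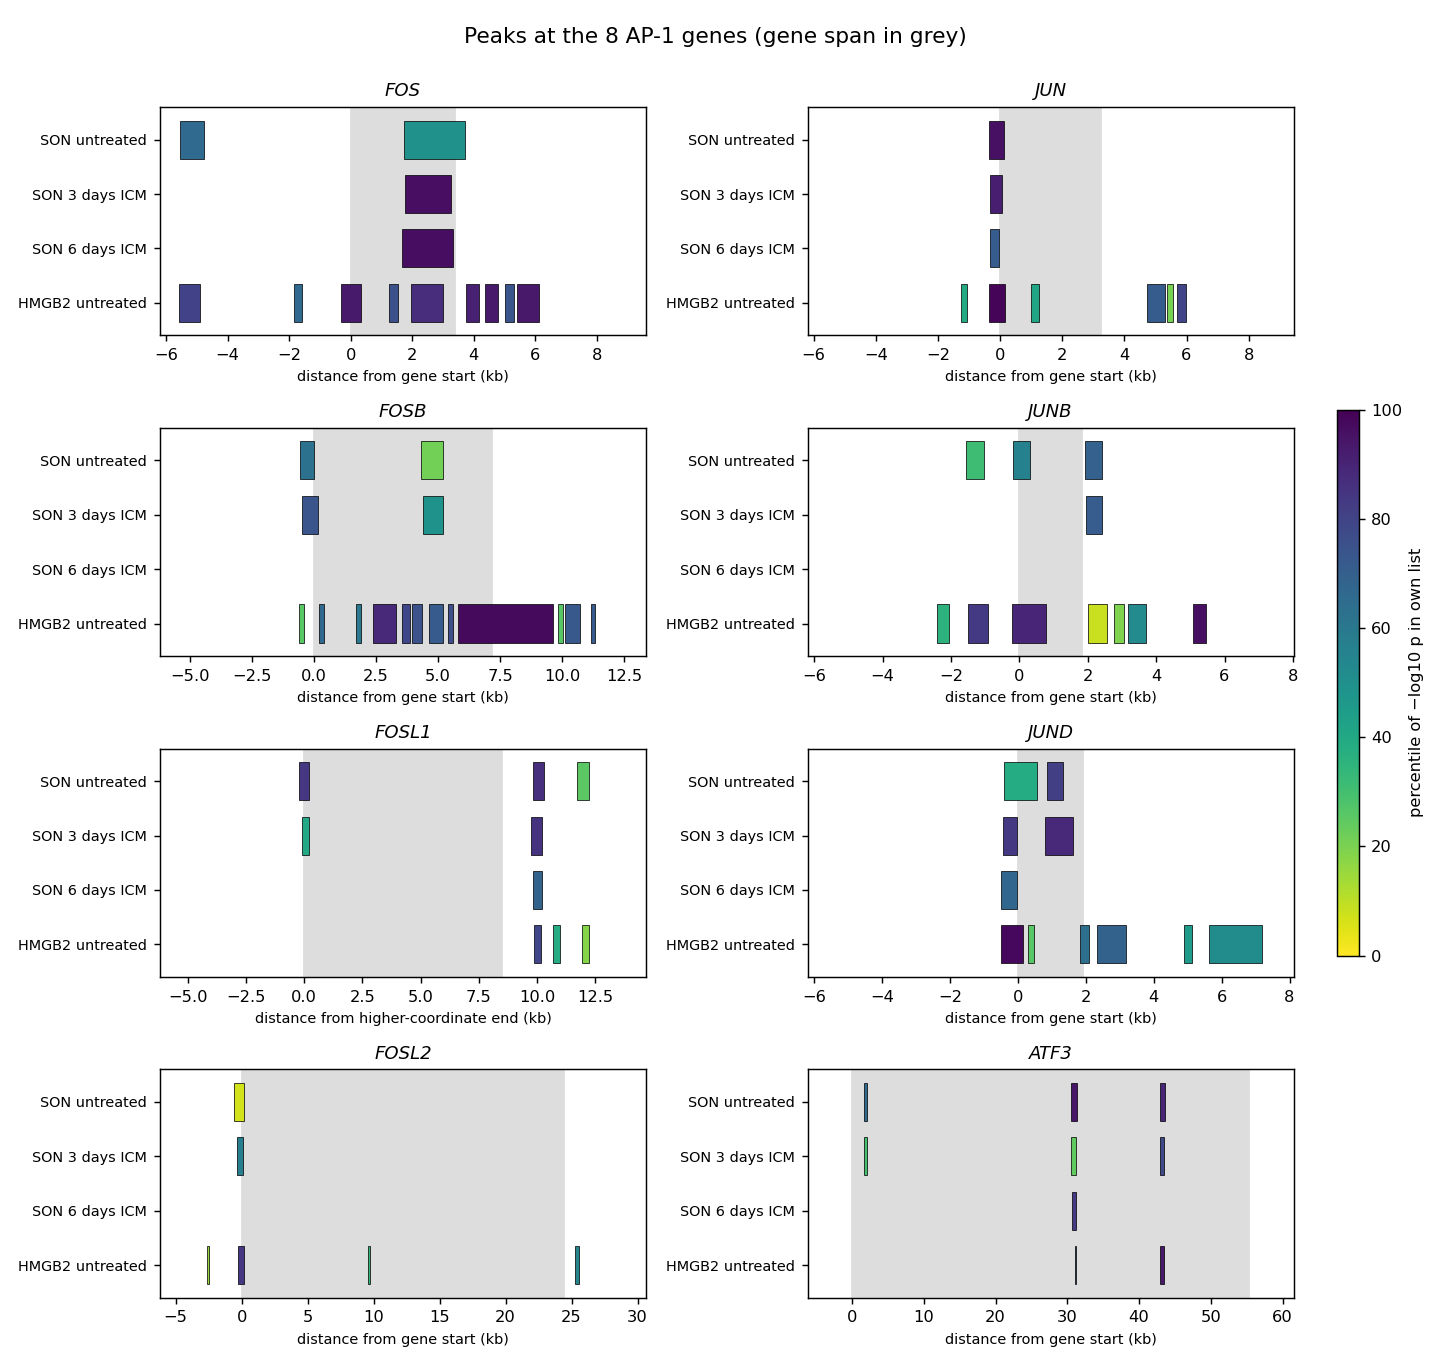
Peaks of the 4 lists at the 8 AP-1 genes, plotted as distance in kb from the gene start in the direction of transcription (for FOSL1 from its higher-coordinate end), with the gene span in grey and the colour giving the percentile of −log10 p in the peak's own list. SON has 1 to 3 peaks at a gene where it has any, while HMGB2 has 6 or more at FOS, FOSB, JUN, JUNB and JUND, lying within, before and after these genes.

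The strongest untreated SON peak at any of the 8 genes lay at JUN. JUN (chr1:58780791-58784047, minus strand, 3.26 kb long) encodes the partner that most AP-1 dimers share. It had a single SON peak in each list, all at the gene start. Their −log10 p was 38.9 in the untreated list (rank 889, percentile 96.0), 25.1 at 3 days (rank 956, percentile 91.4) and 10.4 at 6 days (rank 1611, percentile 71.1). The summits lay 101, 156 and 160 bp before the start, a spread smaller than the width of any of these peaks (464, 367 and 309 bp). The replicates gave the same value in untreated cells, 25.1 and 26.1 at 3 days, and 10.4 and 12.2 at 6 days, and the global IDR was 0.00158, 0.00367 and 0.133. The 6-day peak was thus in the deposited list but above an IDR of 0.05.

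JUND (chr19:18279694-18281622, minus strand, 1.93 kb long) encodes the JUN protein that resting cells hold most steadily. It had a SON peak at its start in all 3 lists, with a −log10 p of 8.52, 17.1 and 9.91 from the untreated to the 6-day list, at percentiles 38.4, 83.9 and 67.0. The summits lay 154, 143 and 157 bp before the start. A further SON peak inside the gene, 1.10 kb after the start in untreated cells and 1.08 kb at 3 days, had a −log10 p of 18.5 and 21.3 and was not listed at 6 days. Thus the peak within the gene was the stronger of the pair in the untreated and 3-day lists, and the peak at the start was the one still listed at 6 days.

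JUNB (chr19:12791486-12793315, plus strand, 1.83 kb long), which encodes a JUN protein with weaker activation than JUN, had 3 SON peaks in untreated cells. They lay 1.28 kb before the start, 103 bp before it and 2.11 kb after it, just past the end of the gene, and their −log10 p was 7.77, 10.96 and 13.9. The peaks before and at the start also lay on the span of the neighbouring gene HOOK2. The peak 1.28 kb before the start stood at the largest IDR of its list. Of the 3 peaks, only the one past the gene end was listed at 3 days, with a −log10 p of 12.2, and none at 6 days.

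FOS (chr14:75278828-75282230, plus strand, 3.40 kb long) encodes the short-lived prototype of the FOS family. None of its SON peaks touched the 250 bases before its start, as at the ATF3 starts of the table. A wide peak covered the later part of the gene in every list, with widths of 1984, 1520 and 1677 bp in order of time, wider than 99.8% of the peaks of each list or more. Its summits lay 2.16, 2.28 and 2.83 kb after the start. Its −log10 p was 9.88 in the untreated list (rank 11246), 44.0 at 3 days (rank 406) and 25.8 at 6 days (rank 175), at percentiles 49.7, 96.4 and 96.9. The untreated value rests on replicate 2, where the peak had 9.88, while replicate 1 had 30.2, which stood at percentile 92.9 among the values of that replicate. At 3 days both replicates had 44.0, and at 6 days they had 26.5 and 25.8. The global IDR was 0.431, the largest in the untreated list, then 0.0011 and 0.00144. The difference in percentile between the untreated and the later lists is therefore seen in replicate 2, whose percentiles were 43.4, 88.9 and 94.1, and hardly in replicate 1, whose percentiles were 92.9, 96.3 and 96.2. Among 4243 untreated SON peaks that both later lists met, 25 (0.589%) had percentiles that were higher by at least as much in each of them, by the lower of the replicate values. The limit was the FOS peak's own difference, so this share describes its place among them and is not a test. Over all untreated peaks found again, the median difference in percentile, later minus untreated, was -13.2 at 3 days and -20.0 at 6 days. A further untreated peak 5.31 kb before the FOS start had a −log10 p of 12.9 (percentile 65.9) and was the stronger of the FOS pair in that list. It reached into the 5-kb window by 246 bases and was in neither later list.

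**Figure D2:**
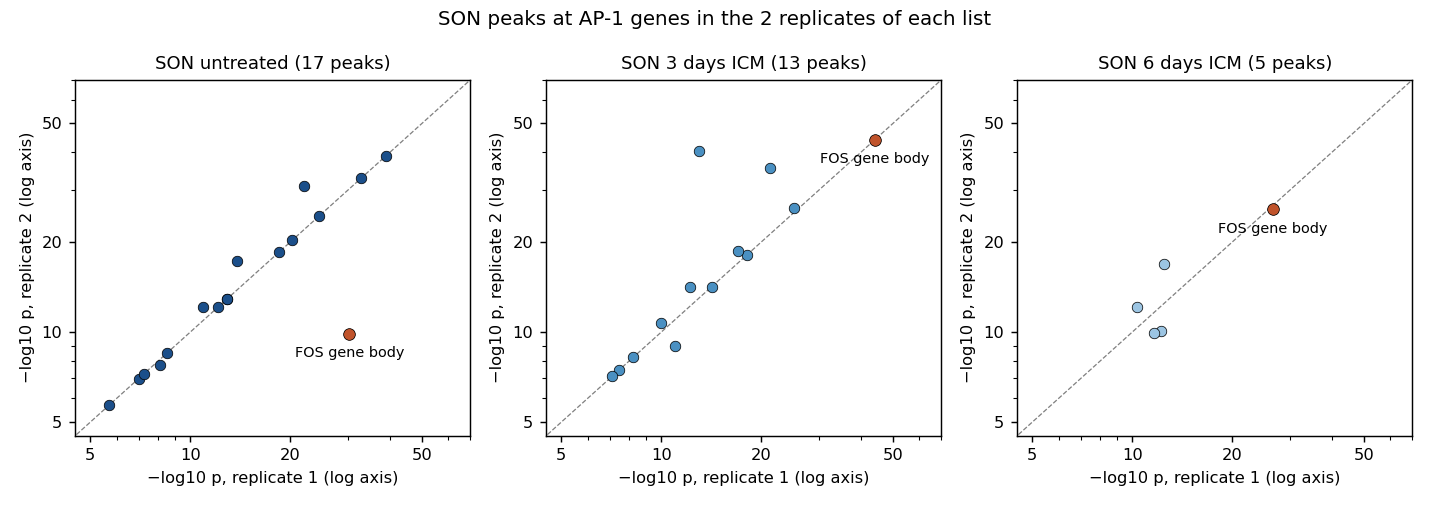
Values of −log10 p in replicate 1 (x) and replicate 2 (y) of each SON list for the peaks at AP-1 genes, on log axes, with the line of equal values dashed and the FOS gene-body peak in orange. In the untreated list the FOS peak, with 30.2 and 9.88, lies far below the line, and at 3 and 6 days it lies on or near it and is the strongest at these genes.

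FOSB (chr19:45467996-45475179, plus strand, 7.18 kb long), whose protein resembles FOS and has a stable truncated form, had SON peaks at its start and inside the gene in the untreated and 3-day lists. At the start the −log10 p was 12.1 and 13.0, with summits 250 and 274 bp before it. Inside the gene, 4.91 and 4.95 kb after the start, it was 6.997 and 8.996. The global IDR of this inner peak was 0.431, the largest in the untreated list, and 0.101 at 3 days. At 3 days the replicates differed at the start, with 13.0 in replicate 1 and 40.4 in replicate 2. FOSL2 (chr2:28392858-28417317, plus strand, 24.5 kb long), which encodes FRA2, had 1 SON peak on its start in each of these lists, with a −log10 p of 5.70 (rank 20814, percentile 6.92) and 10.0 (rank 4724, percentile 57.7). That start is shared with the span of the antisense transcript FOSL2-AS1. The untreated FOSL2 peak was the weakest SON peak at any of the 8 genes and stood at the largest IDR of its list.

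FOSL1 (chr11:65892049-65900545, 8.50 kb long), which encodes FRA1, a FOS protein abundant in migrating and invasive cells, had a SON peak on its higher-coordinate end whose −log10 p was 20.3 untreated and 8.24 at 3 days, the latter at the largest IDR of that list, and none at 6 days. The peak that kept FOSL1 in the 6-day count lay on the neighbouring gene CCDC85B, with a −log10 p of 21.97, 18.1 and 10.1 in the 3 lists. Without peaks on another coding gene, SON marked 4 of the 8 genes at 6 days.

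ATF3 (chr1:212565407-212620777, plus strand, 55.4 kb long), a stress-induced factor that often represses its targets, had its peaks inside the gene and none on the 250 bases before either start of the table. Starts that the table leaves out were not examined, so a peak inside the span may lie on one. In untreated cells SON peaks lay 1.93, 31.0 and 43.1 kb after the first start, and their −log10 p was 12.9, 32.7 and 24.4. At 3 days the same 3 places had 7.49, 7.12 and 14.2, and at 6 days only the middle one was listed, with 12.4. The middle peak thus stood at percentiles 94.2, 24.4 and 83.0 in the lists by time, and its 3-day value was at the largest IDR of that list. So was the 3-day value of the peak nearest the first start. HMGB2 peaks lay on the middle and the last of these places, with a −log10 p of 12.02 and 19.7.

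**Figure D3:**
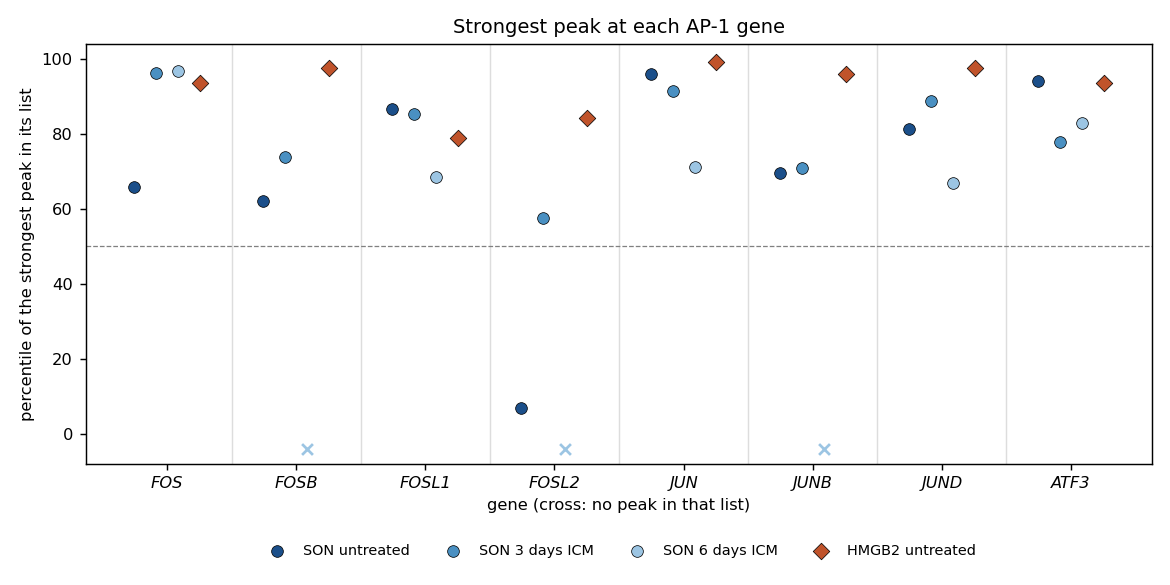
Percentile, within its own list, of the strongest peak at each AP-1 gene for the SON lists (circles) and the HMGB2 list (diamonds), with crosses where a list has no peak and the 50th percentile dashed. HMGB2 percentiles run from 79.0 at FOSL1 to 99.1 at JUN, and the FOS values of the later SON lists, 96.4 and 96.9, stand above the untreated one, which at 65.9 is that of the peak before the gene.

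Over the 8 genes, the percentile of the strongest peak had a median of 75.4 in untreated SON (all genes with a peak, 71.9), 81.6 at 3 days (66.2), 71.1 over the 5 genes at 6 days (59.3) and 94.9 for HMGB2 (59.5). A strongest peak is picked from more peaks where a gene has more. The 8 genes had a median of 6 HMGB2 peaks, against 1 over all genes with a peak, so the HMGB2 values mix number and strength. Over all 49 HMGB2 peaks at the 8 genes the median percentile was 71.7. In the untreated SON list 12 of the 17 peaks carried identical replicate values, as did 55.9% of that list. The counts were 6 of 13 at 3 days and 0 of 5 at 6 days, against 29.0% and 9.49% of those lists. How the replicates were made is not stated, so the closeness of their values is not a measure of biological spread.

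HMGB2 peaks were many at most of the AP-1 genes. FOSB carried 12 HMGB2 peaks, FOS 9, JUNB 7, JUN 6, JUND 6, FOSL2 4, FOSL1 3 and ATF3 2, while the median protein-coding gene had 0. At least 2 peaks were found at all 8, against 6.11% of genes, and at least 6 at 5 of the 8, against 0.265% (53 genes). At least 9 were found at 2 (0.0651%) and at least 12 at 1 (0.03%). These limits were chosen after the values were seen. Without peaks on another coding gene, 43 of the 49 HMGB2 peaks remained, with some still at all 8 genes. Those left out lay on HOOK2 or PRDX2 at JUNB, on IQCN at JUND and on FIBP at FOSL1. JUNB and JUND then had fewer than 6. The covered shares given next include these peaks. By the share of the gene and its 5-kb flanks that HMGB2 peaks covered, FOSB ranked 1 of 19974 genes with 46.0%, FOS 3 with 31.3%, JUNB 4 with 30.9%, JUND 6 with 28.9% and JUN 20 with 15.1%. FOSL1, FOSL2 and ATF3 had 4.77%, 3.13% and 1.11%. These last are the longest of the 8 genes, at 8.50, 24.5 and 55.4 kb, but FOSB, with the highest share, is 7.18 kb long. A link with length was not tested. After peaks within 1 kb of each other were merged, 20 stretches remained at the 8 genes, with at least 2 at all but FOSL1 (4.99% of all genes), 3 or more at FOS, FOSL2, JUNB and JUND (1.41% of all genes) and 2 at FOSB.

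**Figure D4:**
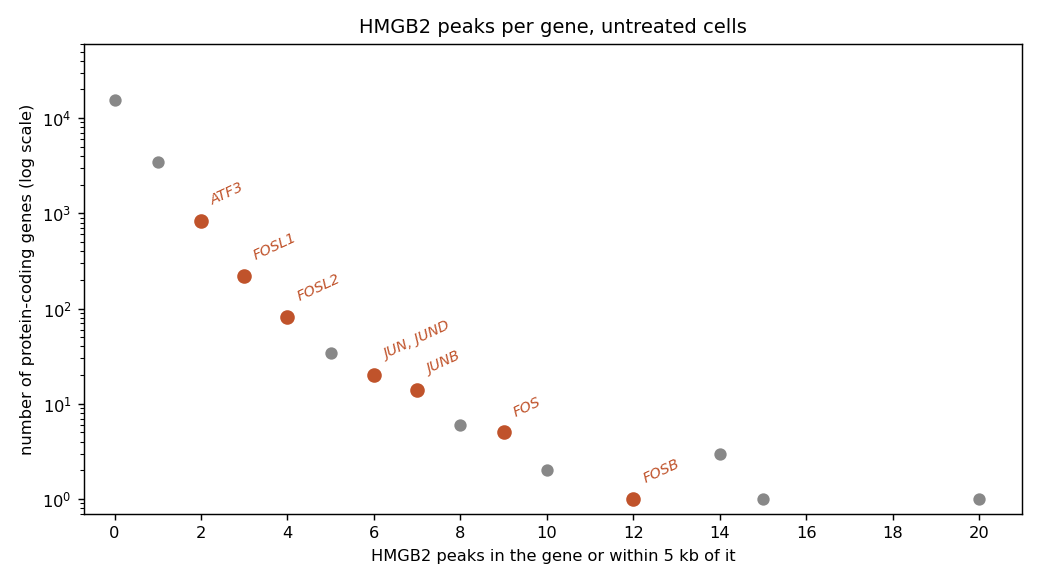
Number of protein-coding genes (y, log axis) with each number of HMGB2 peaks in the gene or within 5 kb (x), with the points that hold AP-1 genes in orange and named. FOSB with 12 peaks and FOS with 9 stand far along the axis, where 6 and 13 genes have at least as many.

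At FOSB the HMGB2 peaks ran from 437 bp before the start to 11.2 kb after it. The strongest was also the widest, 3825 bp over the end of the gene, with a −log10 p of 28.8, rank 148 and a fold enrichment of 10.3 over the caller's background. The other 11 peaks had a −log10 p from 7.72 to 16.7. At FOS, 3 of the 9 peaks touched the gene and 4 followed its end, 4.05 to 5.54 kb after the start, with folds of 4.96 to 8.40. The peak on its start had a −log10 p of 19.4 and a fold of 7.06. All 9 FOS peaks had percentiles between 66.0 and 93.5, while the strongest peaks at JUN, JUND, FOSB and JUNB stood at 99.1, 97.7, 97.5 and 96.0.

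At JUN and JUND the peak on the start had the highest −log10 p of the gene. The JUN start peak had a −log10 p of 58.3 (rank 52) and a fold of 5.83, while the −log10 p of the other 5 JUN peaks lay between 7.17 and 13.7. By fold it was not the highest at JUN, since the peak 5.83 kb after the start had 7.74. The JUND start peak had a −log10 p of 29.5 (rank 140) and a fold of 7.43, while the −log10 p of the other 5 lay between 7.69 and 11.5. At JUNB the peak on the start had a −log10 p of 17.1, and the strongest, 22.9 with a fold of 9.91, lay 5.23 kb after the start on the neighbouring gene PRDX2. A peak within 1 kb of the start was found at 6 of the 7 genes whose start the table gives, against 16.2% of genes. The exception was ATF3, at the starts that the table gives. Over all 49 peaks the fold ran from 3.06 to 10.3 with a median of 5.39, and the whole list had a median of 4.89.

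SON peaks at AP-1 genes coincided with HMGB2 peaks, but most HMGB2 peaks there had no SON peak. Of the SON peaks, 14 of 17 in untreated cells, 10 of 13 at 3 days and 5 of 5 at 6 days shared at least 1 bp with an HMGB2 peak, where 16.5%, 23.6% and 25.4% of all chromosomal peaks of these lists did. All 8 genes carried HMGB2 peaks, over 1.11% (ATF3) to 46.0% (FOSB) of the gene and its 5-kb flanks. The shares over all SON peaks do not allow for this density. Of the 49 HMGB2 peaks, 16 met an untreated SON peak, and no more were met when the later lists were added. Across the list, 62.3% of HMGB2 peaks met an untreated SON peak. At FOS 7 of 9 HMGB2 peaks met no SON peak, at FOSB 9 of 12, at JUN 5 of 6, at JUNB and JUND 4 each, at FOSL2 3 of 4 and at FOSL1 1 of 3, while both ATF3 peaks met one. All 3 SON peaks with no HMGB2 peak in untreated cells lay at FOSL1 (its higher-coordinate end), inside JUND and 1.93 kb into ATF3. Several HMGB2 peaks share a gene, so these counts are not independent of one another.

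Of the 17 untreated SON peaks at these genes, 13 were met by the 3-day list and 5 by the 6-day list, and across the list 45.4% and 21.9% were. All 13 of the 3-day peaks lay on an untreated one, as did all 5 of the 6-day peaks. Of all peaks of these lists, 91.6% and 88.9% did. In this direction, from later to untreated, the counts are near the shares of the whole lists. The 4 that no later list met were the peak 5.31 kb before FOS, the peak on FIBP beside FOSL1, and the JUNB peaks 1.28 kb and 103 bp before its start.

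Other genes of the pathway were read from 4 lists of related genes. Of 25 other immediate early genes, 17 (68%) had an HMGB2 peak, against 23.3% of all genes, and 21 (84%), 15 (60%) and 6 (24%) had a SON peak in the untreated, 3-day and 6-day lists, against 57.1%, 41% and 21.5%. Of these 25, 5 had at least 6 HMGB2 peaks. They were NR4A1, a nuclear receptor, with 14, MCL1, a survival factor of the BCL2 family, with 8, ZFP36, which speeds decay of AU-rich mRNAs, with 7, and the zinc finger factor EGR1 and the MAP kinase phosphatase DUSP1 with 6 each. NR4A1 also ranked highest in this list over all 4 peak lists, with a mean percentile of its strongest peaks of 90.7, followed by CCN2 with 66.2 and KLF6 with 63.4. No gene of the other 3 lists had 6 or more HMGB2 peaks.

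Of 26 other bZIP factors and partners, 10 had an HMGB2 peak (38.5%, against 23.3% of all genes). A SON peak was found at 23, 19 and 12 in the 3 lists in order (88.5%, 73.1% and 46.2%, against 57.1%, 41% and 21.5%). The strongest were DDIT3, a stress-induced C/EBP relative, with a mean percentile of 96.8, CREB5 with 87.5 and CREB3 with 86.1. Of 20 kinases and serum response factors upstream of FOS and JUN, 7 had an HMGB2 peak (35%) and 16, 12 and 8 a SON peak (80%, 60% and 40%), against the same shares of all genes. They were led by the kinase MAPK7 with a mean percentile of 92.3, the SRF coactivator MRTFA with 84.1 and the kinase MAP2K7 with 74.7. MAP2K7 had no HMGB2 peak but stood at percentile 99.8, 99.9 and 99.2 in the SON lists. Of 18 genes known as AP-1 targets, 5 had an HMGB2 peak (27.8%) and 9, 6 and 3 a SON peak (50%, 33.3% and 16.7%), shares near those of all genes. PLAU, the urokinase gene, led that list with a mean percentile of 66.2, and PLAUR, the gene of its receptor, had 33.7.

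**Figure D5:**
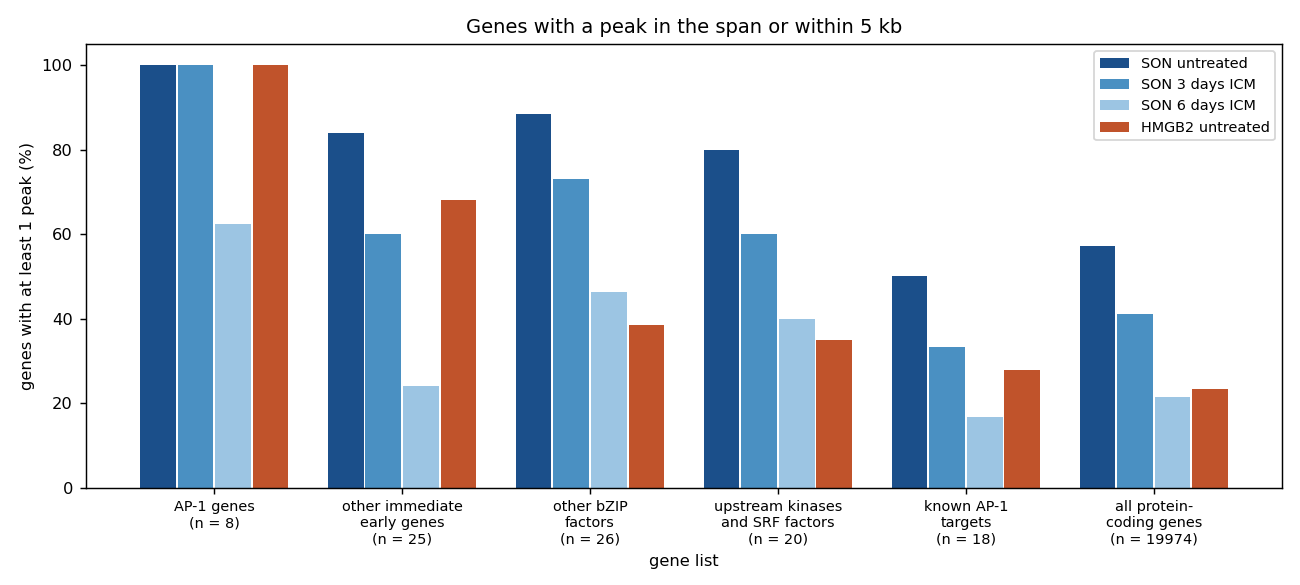
Percentage of genes (y) with at least 1 peak in the span or within 5 kb, for the AP-1 genes, 4 related lists and all protein-coding genes (x), in the 3 SON lists and the HMGB2 list, with the number of genes under each group. For HMGB2 the AP-1 genes stand at 100% and the other immediate early genes at 68%, while the known AP-1 targets, at 27.8%, are near the 23.3% of all genes.

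JUN had the highest mean percentile of the 8 genes over the 4 lists, 89.4, followed by FOS with 88.2 and ATF3 with 87.2. By the Euclidean distance between the 4 percentiles, the genes most like JUN were QPCTL and SNRPD2, which had the same values at a distance of 3.21, and LSM2 at 4.40. With 4 lists this likeness rests on 4 values a gene.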

How the data were processed

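Peak lists of 4 samples were used, 1 per group. Per the submitters' processing notes, the reads were handled with bcl2fastq 2.17, Bowtie2, deepTools and MACS2 on build hg38. Settings, filters and the control of peak calling are not given in the sources used here. The 3 SON lists have 20 columns, as the IDR tool writes them for 2 replicates. In them the authors deposited −log10 p per replicate, the lower of which is the peak's value, the −log10 of the IDR, and a score. The HMGB2 list has 10 columns, in which the authors deposited a fold enrichment, −log10 p, −log10 q and a score, and its peak names state a q cutoff of 0.03.

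Peaks were assigned to RefSeq spans of GRCh38.p14 plus 5 kb on each side. Ranks and percentiles were computed over the whole list, ties sharing the better rank. Peaks were shared at 1 bp of overlap. Starts came from the RefSeq promoter table, which held 15813 of the protein-coding genes. Named genes were the 8 members, and of each other list the 3 with the highest mean percentile of their strongest peak (a list without a peak counting as 0), of which 1 is not reported here. Genes singled out by 6 or more HMGB2 peaks were chosen after the values were seen. The members and lists were chosen with earlier results of these data known. The counting functions were tested on simulated data. Each group has 1 list, so no tests were run. Depth is unknown. Python 3.11.15, numpy 2.4.6, pandas 2.3.3 and matplotlib 3.10.9 were used.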

Additional observations from a re-analysis of the deposited data

How the results depend on the processing

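Of the counts of AP-1 genes or peaks recomputed under other settings, 58 stayed within 1.5 times the reported value and 17 did not. With the gene span alone, 11 untreated SON peaks, 21 HMGB2 peaks and 2 SON peaks at 2 genes at 6 days remained. With 1 kb on each side 29 HMGB2 peaks remained. Within 1 kb of a gene start (for FOSL1, of its higher-coordinate end) there were 7 untreated SON peaks, 6 SON peaks at 5 genes at 3 days, 2 at 2 genes at 6 days and 9 HMGB2 peaks. These settings count in a narrower window. A global IDR of at most 0.05 left 1 SON peak at 1 gene at 6 days. The stronger 50% of each list left 11 untreated SON peaks, and lists of equal length left 6 at 4 genes. Merging peaks within 1 kb, an alternative chosen after seeing the data, left 20 HMGB2 stretches. With the −log10 p of 1 replicate in place of the lower value, the percentile of the strongest peak moved by more than 10 in 8 cases. The largest was FOS in untreated cells, at 92.9 by replicate 1. Limited to genes no longer than ATF3, 52%, 37.2%, 18.4% and 22.2% of genes had a peak in the 3 SON lists and the HMGB2 list. No paired analysis was possible because each group has 1 list and no result comes from a test. No whole list could be left out of a group, and the use of 1 replicate's values alone is given above.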

Other observations

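The surroundings of the 8 genes differed in density. In the 500 kb on each side, outside the 5-kb window, FOSL1 had 57 HMGB2 peaks, FOSB 26, JUND 23 and JUNB 20, against a median of 2 over all protein-coding genes. FOS had 9, FOSL2 and ATF3 8 each. JUN had 2, fewer than the 6 in its own window. For untreated SON the same regions held 36 peaks at FOSL1, 35 at FOSB, 33 at JUNB, 27 at JUND, 21 at FOS and ATF3, 17 at FOSL2 and 15 at JUN, against a median of 12. At 6 days FOSB, whose own window had none, still had 14 SON peaks around it, where the median gene had 3.

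Just outside the 5-kb window of ATF3 lay an untreated SON peak, 6.10 kb away with a −log10 p of 23.2, and a 3-day SON peak, 6.03 kb away with 7.92. Between 5 and 10 kb, JUND had 3 further HMGB2 peaks, all on the neighbouring gene IQCN, the strongest with 15.2, and JUNB had 2, on HOOK2 and PRDX2, with 8.60 and 8.48, and 1 untreated SON peak on HOOK2 with 5.79.

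The protein-coding genes with more HMGB2 peaks than FOSB were IGFBP5 with 20, TPM4 with 15, and LMNA, NR4A1 and PDE10A with 14 each. Their spans are 23.4, 35.5, 57.5, 36.7 and 660.8 kb long, against 7.18 kb for FOSB. The fibroblast collagen genes COL1A2 and COL1A1 had 10 and 8.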
